A study of Mus musculus with 8 samples.

Results

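The regions described here are wide stretches of the mouse genome at which the transcription factor YY1 was found in every YY1 library and the histone acetyltransferase P300 was found in none. Peaks of the 4 YY1 libraries on chromosomes 1 to 19 and X were joined wherever any of them overlapped by at least 1 bp, which gave 20558 regions. Of these, 2008 held a peak of all 4 YY1 libraries, called constant regions below, and 1716 of the constant regions shared no base with a peak of the 4 P300 libraries. The 696 of them with a merged width of at least 700 bp are the wide regions. They made up 3.39% of all merged YY1 regions and 40.6% of the constant regions without P300, and the other 1020 are called narrow regions. Constancy, width and absence of a P300 peak were all read from the peak lists to choose the regions: they were selected on the positions of peaks called in these same libraries. These properties are therefore descriptions and were not tested.

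The cells were E14TG2a, an established mouse embryonic stem cell line kept in medium with serum, LIF and the inhibitors PD0325901 and CHIR99021, all groups alike. The genotypes were wild type (WT) and Alkbh5 del-cIDR, written ΔcIDR here, a deletion in the gene of the RNA demethylase ALKBH5. The series title spells IDR out as intrinsically disordered region, and the labels leave the c unexplained. Each antibody was used on 2 libraries of each genotype, which makes 8. The sources used here do not say how the allele was made, or whether the lines were single clones and the replicates separate cultures. Each p-value therefore reflects the spread between libraries alone, and that spread may be technical. Peak lists hold no expression values, so the stem cell identity of the line was not checked against marker genes.

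YY1 is a zinc-finger protein that binds a short DNA motif, occupies many active promoters, and can activate or repress depending on its partners. In embryonic stem cells it is also known for joining enhancers and promoters in loops. P300 acetylates histones and is widely used to mark active enhancers, although it is found at promoters too. ALKBH5 removes methyl groups from adenosines in RNA. In CUT&RUN an antibody directs a nuclease to its target on chromatin and the released DNA fragments are sequenced, so a peak is a stretch in which released fragments exceeded the background, and its width combines the spread of bound sites, the fragment length and the strength of the signal. Gene names and sequence on GRCm39, the genome build of the files, were not used here, and the regions are identified by position, counted from 1.

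The libraries differed in list length and in the shortest peak they held. On the chromosomes used, the YY1 lists held 9167 and 15517 peaks in ΔcIDR replicates 1 and 2, and 3519 and 5833 in WT replicates 1 and 2. The shortest YY1 peaks were 164 and 134 bp in ΔcIDR and 178 and 163 bp in WT cells. The P300 lists held 1286 to 2474 peaks. The files give no read totals, so the depth behind each list is unknown. A region absent from a list was not called there and may still have been bound.

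The wide regions were compact blocks, mostly under 1 kb. Their merged width ran from 700 to 1961 bp with a median of 859.5 bp, and together they covered 632986 bp. In all, 460 were at least 800 bp wide, 174 at least 1000 bp, 55 at least 1200 bp and 8 at least 1500 bp. The narrow regions had a median width of 531.5 bp. Width and constancy went together in the merged set. Of the 1272 merged YY1 regions of at least 700 bp, P300 overlap aside, 64.2% (Wilson 95% interval 61.5 to 66.7) were called in all 4 libraries, against 6.18% (5.85 to 6.53) of the 19286 shorter regions. Merging alone links these properties, since a region built from more peaks is longer, and the intervals cover counting error only. P300 overlap was about as frequent at both widths. P300 peaks overlapped 14.7% (12.4 to 17.3) of the wide and 14.4% (12.5 to 16.5) of the narrow constant regions, that is 120 and 172 regions.

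The merged width was seldom reached by a single peak in every library. A single peak of at least 700 bp was present in 292 and 386 of the 696 wide regions in ΔcIDR replicates 1 and 2, and in 94 and 180 in WT replicates 1 and 2. In 51 regions (7.33%) all 4 libraries had such a peak, in 64 regions 3 libraries, in 136 regions 2, and in 284 regions 1. The remaining 161 (23.1%) passed 700 bp only as the union of shorter peaks. The left edge of the merged region was set by ΔcIDR replicate 2 in 312 regions, ΔcIDR replicate 1 in 218, WT replicate 2 in 140 and WT replicate 1 in 62. The right edge was set by them in 330, 226, 120 and 61 regions, libraries sharing an edge each counting. A region could also consist of separate peaks within a library, but 572 of the 696 were a single peak in each library and none was split in all 4. Where a region was split, the median gap between its peaks was 172 to 247 bp over the libraries.

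The regions near the width limit show how soft that limit is. At chr3:133249518-133250217, exactly 700 bp wide, peaks covered 503 and 692 bp in ΔcIDR and 377 and 600 bp in WT replicates 1 and 2. At chr7:119494943-119495642, also 700 bp, they covered 700 and 418 bp in ΔcIDR and 239 and 294 bp in WT. The first of these reached the limit as the union of offset peaks, the second through a single library. Just outside, chr18:42644230-42644928 had a merged width of 699 bp, with 433 and 651 bp covered in ΔcIDR and 178 and 359 bp in WT. The region chr14:68273869-68274567 was also 699 bp wide, with 678 and 450 bp covered in ΔcIDR and 329 and 326 bp in WT. The bases covered per library thus overlapped between regions on both sides of the limit.

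**Figure D1:**
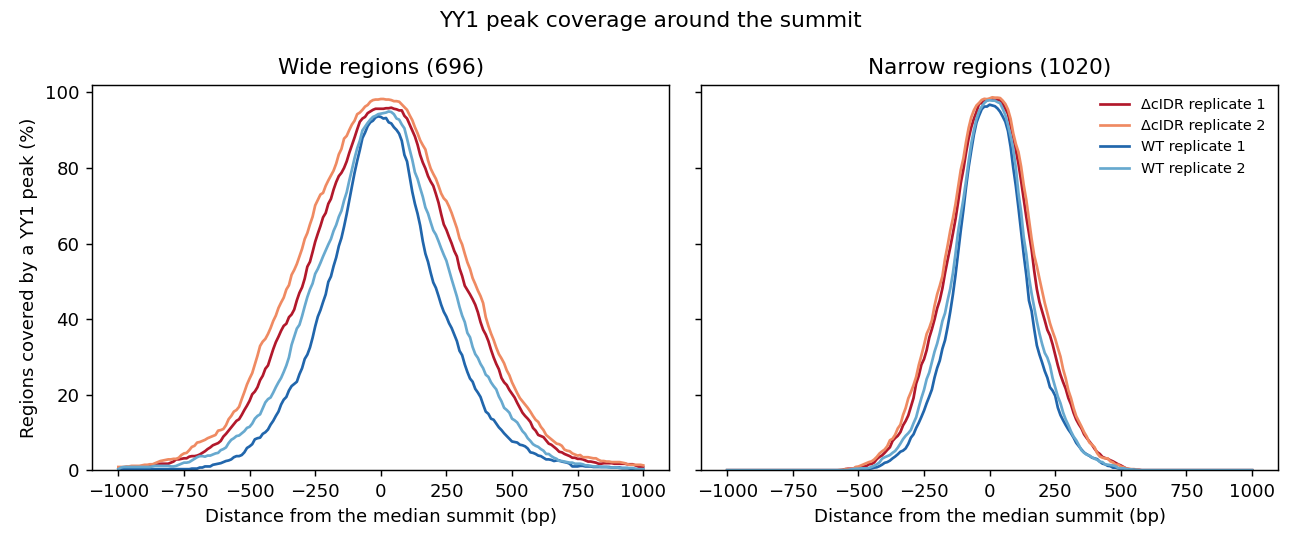
The share of regions covered by a YY1 peak (y axis, %) is plotted against the distance in bp from the median of the 4 libraries' summits (x axis), for the 696 wide regions on the left and the 1020 narrow regions on the right, with 1 line per library. At 300 bp from the summit, ΔcIDR replicate 2 still covered 60.0% of the wide regions and WT replicate 1 29.3%.

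YY1 peak coverage in the wide regions fell off on both sides of the summit. Alignment on the libraries' own summits gives this shape by construction, and the wider reach than in narrow regions follows from the width rule. At the median summit of the 4 libraries, 93.5% to 98.3% of the wide regions were covered in a given library. At a distance of 300 bp, averaged over both sides, 50.9% and 60.0% were covered in ΔcIDR replicates 1 and 2, and 29.3% and 42.0% in WT replicates 1 and 2. In the narrow regions ΔcIDR replicates 1 and 2 covered 18.0% and 20.9% at that distance, and the WT replicates 9.71% and 11.3%. The summit lay close to the middle of the merged region, at a median of 0.486 to 0.499 of its length depending on the library. It fell between 33.3% and 66.7% of the region's length in 57.0% to 58.5% of the wide regions and in 52.2% to 55.6% of the narrow ones. The longer side of the peak was the same in all 4 libraries in 25.6% (22.5 to 28.9) of wide and 26.7% (24.0 to 29.5) of narrow regions.

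The 4 libraries placed their strongest summit close to each other. Summits were not used to choose the regions, although a wide region leaves more room for them to differ. The distance between the outermost of the 4 summits had a median of 162 bp in the wide regions (quartiles 87.75 and 318 bp) and of 115.5 bp in the narrow regions. As a share of the merged width it was 18.8% in the wide and 23.8% in the narrow regions. All 4 summits lay within 100 bp in 224 wide regions (32.2%, 28.8 to 35.7) and in 429 narrow regions (42.1%, 39.1 to 45.1). The median distance between the summits of 2 libraries was 69 bp for the ΔcIDR replicates, 68 bp for the WT replicates and 65 to 73 bp for the 4 pairs of a ΔcIDR and a WT library. The range across genotypes thus included both replicate distances.

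Some wide regions had a summit fixed to within a few bases. At chr16:35892063-35892822 the 4 summits lay within 6 bp, and at chr9:21913975-21914691 within 7 bp. The regions chr7:44777967-44778799, chr14:79513201-79514033 and chr17:27423127-27424095 followed with 9, 11 and 17 bp. These regions were not alike in how far the peaks reached around the shared summit. The chromosome 9 region was covered over 655 and 698 bp in ΔcIDR and 650 and 717 bp in WT replicates 1 and 2. The chromosome 16 region was covered over 694 and 730 bp in ΔcIDR and 627 bp in WT replicate 2, but over 189 bp in WT replicate 1. A fixed summit was therefore seen with a long and with a short peak.

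A core shared by all libraries was present in most wide regions. In 652 of the 696 (93.7%, 91.6 to 95.3) at least 1 base was covered in all 4 libraries. The core had a median of 314 bp, or 36.1% of the merged width, against 202 bp and 44.1% in the narrow regions. In the other 44 wide regions no base was covered by all 4 libraries, so they are constant only in the sense that each library had a peak somewhere in the merged block.

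When the wide regions were grouped by signal strength, stronger groups had closer summits and larger cores at the median. Signal strength is given as the percentile of a region's highest −log10 q, the significance deposited by the authors, within the library's own list, averaged over the 4 YY1 libraries. It comes from the same peaks as the width and is described, not tested. Among the 174 regions with the highest mean percentile (91.1 to 99.5) the median distance between the outermost summits was 87 bp and the median core 459.5 bp. Among the 174 with the lowest (19.8 to 67.8) they were 291.5 bp and 171.5 bp. The groups between them had 130.5 and 198.5 bp between summits. Of the 44 regions with no shared core, 38 belonged to the group with the lowest percentiles. The 51 regions with a single peak of at least 700 bp in every library had a median mean percentile of 94.1 and a median core of 784 bp, or 71.7% of their width.

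Within their lists the wide regions ranked high, which the rule favours. It asks for a peak in all 4 lists, the shortest included, and for width, so the ranks are descriptions. The median percentile of the wide regions was 89.1 and 93.1 in ΔcIDR replicates 1 and 2 and 72.0 and 82.3 in WT replicates 1 and 2. For the narrow regions it was 83.1, 89.1, 63.5 and 74.3 in the same order. The wide regions were above the narrow regions in each of the 4 libraries. The fold enrichment at the summit, as deposited by the authors, differed less between them. Its median in the wide regions was 7.41 and 8.54 in ΔcIDR and 5.93 and 6.72 in WT replicates 1 and 2, and in the narrow regions 7.12, 7.98, 5.77 and 6.48. The wide regions held more of the best-ranked peaks than of the lists as a whole, and so did the narrow regions among the 1000 best-ranked. Their peaks made up 8.05% and 4.87% of the lists of ΔcIDR replicates 1 and 2 and 20.3% and 12.6% of those of WT replicates 1 and 2, and the narrow regions 11.2%, 6.62%, 29.0% and 17.6%. Of the 100 best-ranked peaks of a library, 25 to 29 lay in wide regions, 15 to 22 in narrow regions and 41 to 49 in the 292 constant regions with P300, of either width. Of the 1000 best-ranked, 334 to 357 lay in wide regions, 336 to 402 in narrow regions and 135 to 158 in constant regions with P300. The highest fold in a wide region was 20.9, below the 27.4 reached in a narrow region, both in ΔcIDR replicate 2.

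The best-ranked wide region was chr7:5017351-5018428, 1078 bp wide, with a mean percentile of 99.5. Its fold was 11.0 and 15.7 in ΔcIDR and 10.9 and 12.0 in WT replicates 1 and 2, and its peaks covered 1005, 1078, 993 and 1002 bp in that order. Every library thus covered nearly the whole block, and the shared core was 975 bp. The second, chr12:80690667-80691424, had the highest fold of the wide regions in every library but WT replicate 1, with 18.3 and 20.9 in ΔcIDR and 14.0 and 17.7 in WT. It was covered over 545 and 758 bp in ΔcIDR and 508 and 521 bp in WT, so ΔcIDR replicate 2 alone carried it past 700 bp. The third, chr10:79504754-79505716, was covered over 884 and 959 bp in ΔcIDR and 888 and 889 bp in WT. The next were chr1:171238176-171239148, chr14:54854851-54856029, chr7:127344417-127345579, chr4:115932072-115932904, chr7:44545020-44545724, chr6:86503697-86504730 and chr18:34757190-34757942. All 10 had summits within 96 bp of each other, and the folds of the 10 ranged from 9.34 to 20.9. In the region on chromosome 6, WT replicate 1 covered the most bases, 1033 bp, against 929 to 954 bp in the other libraries.

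The 5 widest regions were not among the 10 best-ranked, and their summits lay far apart. The widest, chr5:23637842-23639802, was 1961 bp long and was covered over 1696 and 1584 bp in ΔcIDR and 1036 and 1254 bp in WT replicates 1 and 2. Its WT summits were 952 bp apart while its ΔcIDR summits were 39 bp apart, so the WT replicates disagreed on the strongest point. The region chr14:27150021-27151713 was covered over 1496 and 1558 bp in ΔcIDR and 1134 and 887 bp in WT. At chr2:174136236-174137854 the extent hardly differed, with 1587 and 1510 bp in ΔcIDR and 1422 and 1467 bp in WT, each library holding a single peak and a core of 1422 bp. The fourth and the fifth were chr5:31377477-31379072 and chr7:16133956-16135511. Summits spread over 318 to 956 bp in these 5 regions, and their mean percentiles were 66.8 to 97.9, beside a median of 81.3 over all wide regions.

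Regions wide in 3 libraries were also called more often, and over more bases, in the library left out. For this check, made after the data were examined, constant regions without P300 were rebuilt from 3 YY1 libraries and read in the fourth. Of the regions wide in the other 3, 98.4% were called in ΔcIDR replicate 1, 99.2% in ΔcIDR replicate 2, 77.8% in WT replicate 1 and 92.6% in WT replicate 2. Of the regions narrow in the other 3, the shares were 91.8%, 96.8%, 51.1% and 80.4%. The wide regions were called more often in 4 of 4 libraries, by 12.0 ± 10.6 percentage points (SD, n = 4), with p = 0.125 by a two-sided exact sign-flip permutation test, the smallest p that 4 libraries allow. That test treats the 4 overlapping sets as independent. A wide window leaves more room for an overlapping peak, and wide regions also ranked higher, which favours this direction. Neither was allowed for. WT replicate 1, the shortest list, gave the largest difference, 26.7 points, and ΔcIDR replicate 2, the longest, the smallest, 2.37 points.

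**Figure D2:**
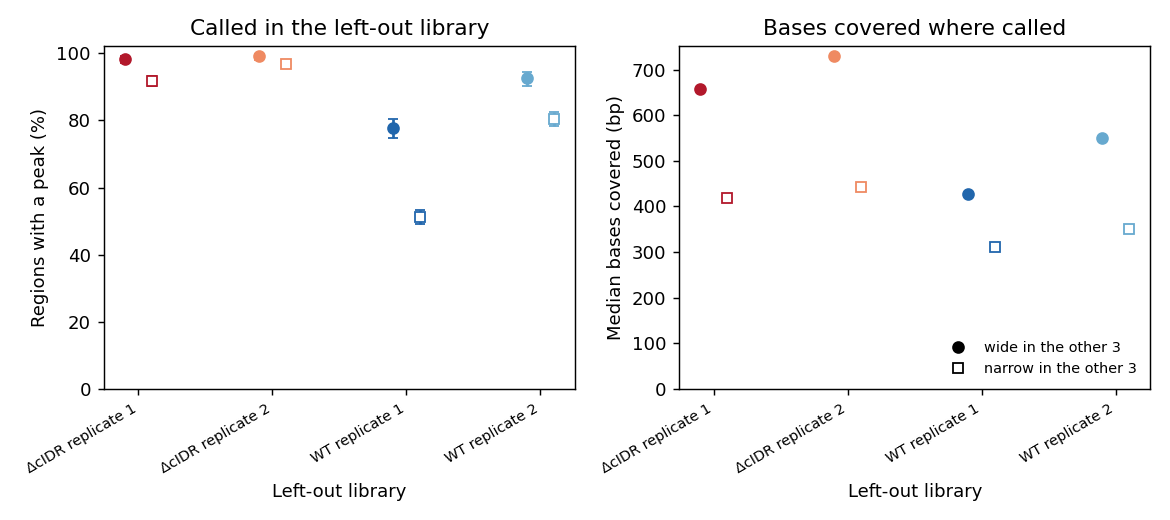
For each library left out (x axis), the left panel plots the share of regions with a peak in it (%, bars are Wilson 95% intervals) and the right panel the median bases covered where called (bp), for regions wide (filled circles) or narrow (open squares) in the other 3 libraries. In each library the circle lies above the square in both panels.

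Where called, the left-out library also covered more bases in the wide regions. The medians were 657.5 and 731 bp in ΔcIDR replicates 1 and 2 and 427 and 550 bp in WT replicates 1 and 2. In regions narrow in the other 3 libraries they were 418 and 443 bp in ΔcIDR and 310 and 351 bp in WT. The ratio of wide to narrow was 1.38 to 1.65, with a mean log2 of 0.62 ± 0.11 (SD, n = 4, exact sign-flip permutation p = 0.125). A single peak of at least 700 bp was found in 40.3%, 53.7%, 13.0% and 25.8% of the wide regions called in these libraries, and in 5.74%, 10.3%, 1.12% and 2.09% of the narrow ones. The sets read in the 4 libraries overlap, so the 4 values are not independent. The wider window favours more bases covered as well, and this was not allowed for.

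Peaks in the wide regions covered more bases in ΔcIDR than in WT cells. The median was 665.5 and 729 bp in ΔcIDR replicates 1 and 2 and 437.5 and 553.5 bp in WT replicates 1 and 2, so both ΔcIDR libraries were above both WT libraries. The mean difference was 0.50 on the log2 scale, a ratio of 1.42. A two-sided exact permutation of the genotypes (n = 2 per genotype) gave p = 0.33, the smallest p its 6 assignments can reach. The replicates differed by 0.13 in ΔcIDR and 0.34 in WT cells on that scale. The difference was 0.33 without WT replicate 1 and 0.67 without WT replicate 2. The medians followed the order of the list lengths, with ΔcIDR replicate 2 highest and WT replicate 1 lowest. The part of list length in the difference was not tested. With lists cut to equal length the difference was 0.44 over the 528 regions still called in all 4. Cutting a list removes whole peaks and leaves the width of the others as deposited, so it cannot show that part. The shortest peak was longest, 178 bp, in WT replicate 1, where the fewest bases were covered, and shortest, 134 bp, in ΔcIDR replicate 2, where the most were. The narrow regions differed in the same direction, by 0.35, a ratio of 1.27. The width rule takes the union of 4 libraries and favours regions that the longest peaks widen, and most edges were set by ΔcIDR libraries. The p-value does not allow for this rule, so the genotype difference in the wide regions is a description. Its larger value than in the narrow regions is a description too.

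**Figure D3:**
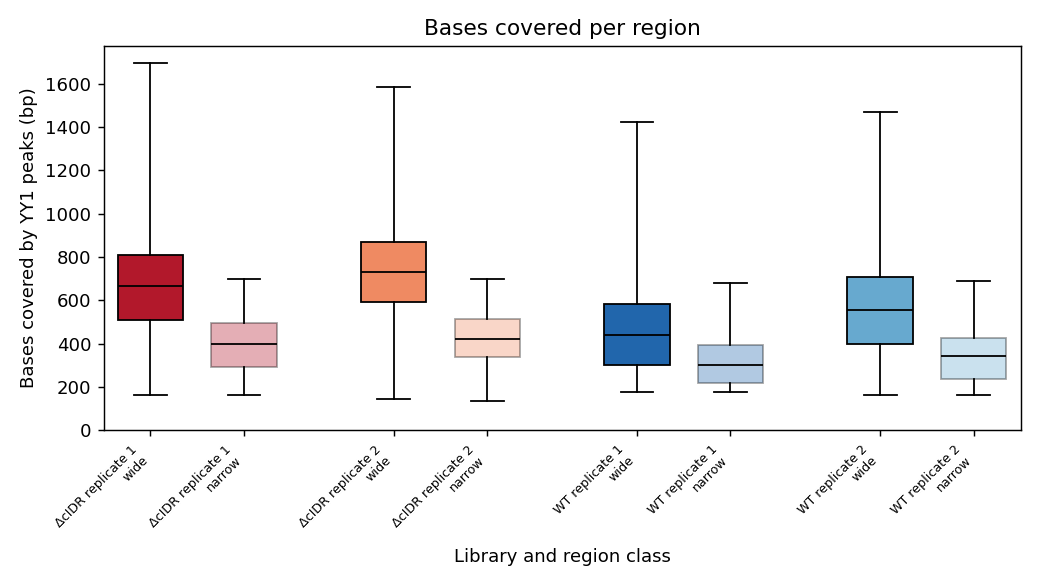
Bases covered by YY1 peaks per region (y axis, bp) are plotted for each library in wide (dark) and narrow (pale) regions; boxes show the quartiles with the median as a line, and whiskers the lowest and highest region. The wide-region medians run from 437.5 bp in WT replicate 1 to 729 bp in ΔcIDR replicate 2.

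Region by region, a longer extent in ΔcIDR was common and a longer extent in WT rare. In 361 of the 696 wide regions (51.9%) both ΔcIDR libraries covered more bases than both WT libraries, beside 44.6% of all 1716 constant regions without P300. In 27 (3.88%) both WT libraries covered more, beside 4.72%. The whole set contains the wide regions, and the shares of the narrow regions alone were 39.7% and 5.29%. The difference between wide and narrow was not tested, since the width rule favours regions that the longest peaks widen. The count of 27 rests on agreement of all 4 libraries: it was 57 when ΔcIDR replicate 1 was left out and 83 when ΔcIDR replicate 2 was. It was 104 on leaving out WT replicate 1 and 47 on leaving out WT replicate 2. The mean log2 bases covered were higher in ΔcIDR in 591 regions (84.9%, 82.1 to 87.4), against 76.5% of the narrow regions. Both ΔcIDR libraries reached further out than both WT libraries at both edges of 91 regions (13.1%), at 1 edge of 346 (49.7%) and at neither edge of 259 (37.2%), against 8.33%, 44.4% and 47.3% of the narrow regions. In the wide regions the WT libraries did so at both edges of none and at 1 edge of 67 (9.63%), against 0.196% and 12.3% of the narrow regions.

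**Figure D4:**
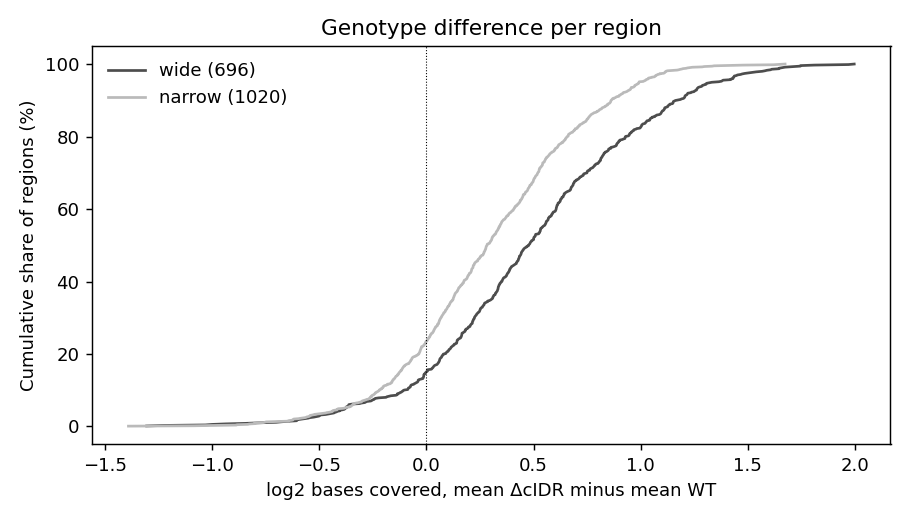
The cumulative share of regions (y axis, %) is plotted against the difference in log2 bases covered, mean of the ΔcIDR libraries minus mean of the WT libraries (x axis), for wide (dark) and narrow (pale) regions. The dotted line marks no difference, and 84.9% of wide and 76.5% of narrow regions lie to its right.

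The size of the genotype difference, but not the number of regions that separated the genotypes, was smaller where the signal was strong. The median difference was 0.33 (log2) in the 174 wide regions with the highest mean percentile and 0.69 in the 174 with the lowest, with 0.46 and 0.53 in between. That percentile includes the WT libraries and rises with bases covered, so the trend is a description and was not tested. From the lowest to the highest group, median bases covered rose from 330.5 and 411 to 563 and 693 bp in WT replicates 1 and 2. In ΔcIDR they rose from 528.5 and 663.5 to 765.5 and 804 bp. From the highest to the lowest group, both ΔcIDR libraries covered more bases than both WT libraries in 88, 87, 97 and 89 of 174 regions. That share was 51.9% over all 696 wide regions and 44.6% over all 1716 constant regions without P300. In the 51 regions with a peak of at least 700 bp in every library, which by that choice are long in WT too, the median difference was 0.14. Of the 10 best-ranked regions, only chr4:115932072-115932904 had a difference above 0.5, with 704 and 675 bp in ΔcIDR and 490 and 466 bp in WT replicates 1 and 2.

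At the regions with the largest difference, short peaks in WT stood against long peaks in ΔcIDR. At chr12:12226743-12227708, peaks covered 838 and 787 bp in ΔcIDR and 226 and 183 bp in WT replicates 1 and 2, a log2 difference of 2.00. The genotypes did not overlap there, and the gap was much wider than the difference between replicates. At chr12:98224847-98225804 the values were 840 and 872 bp in ΔcIDR and 255 and 187 bp in WT, a log2 difference of 1.97. At chr2:155952816-155953968 they were 1012 and 991 bp in ΔcIDR and 332 and 245 bp in WT. The next, chr7:28091737-28092754 and chr8:86567093-86568217, both had log2 differences of 1.75. These 5 were picked for their difference and are not tested. The shortest peak anywhere in the list of WT replicate 2 was 163 bp.

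The regions longer in WT were fewer and their differences smaller. At chr8:64898300-64899030, peaks covered 201 and 384 bp in ΔcIDR and 723 and 653 bp in WT replicates 1 and 2, a log2 difference of −1.31. At chr9:40711327-40712479 the values were 748 and 301 bp in ΔcIDR and 1144 and 1084 bp in WT, a log2 difference of −1.23. The ΔcIDR libraries differed widely there, and both split the region into 2 peaks, while each WT library held it as a single peak. At chr11:116864498-116865374 the values were 543 and 210 bp in ΔcIDR and 645 and 708 bp in WT, with a shared core of 10 bp. The last of the 5, chr6:134904817-134905569 and chr5:65694305-65695559, had log2 differences of −0.94 and −0.84.

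**Figure D5:**
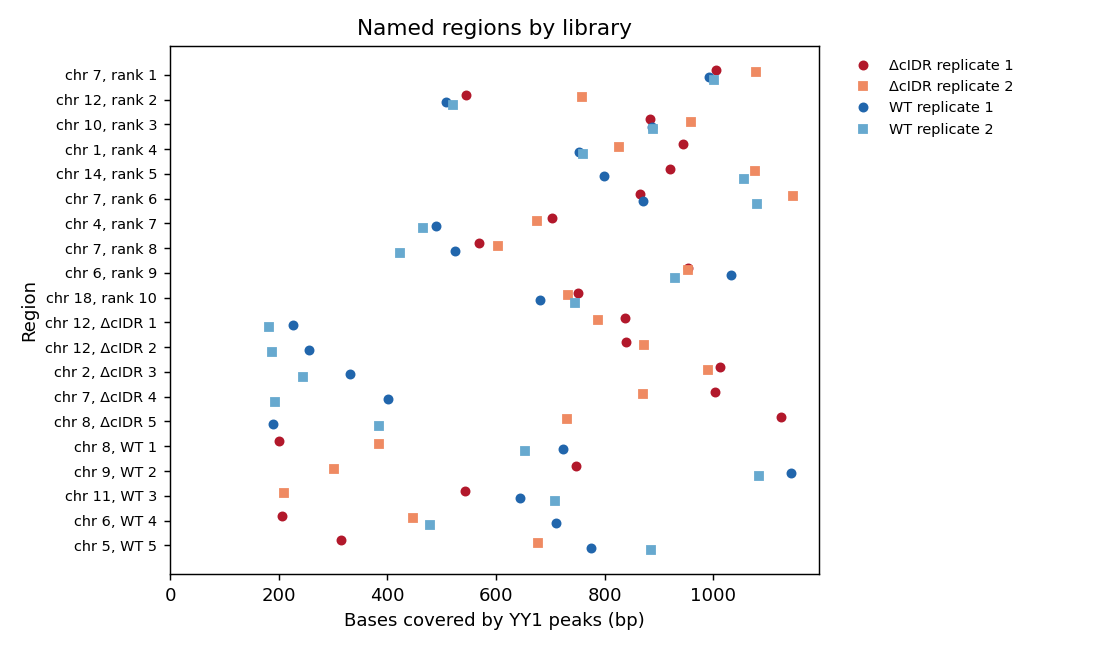
Bases covered by YY1 peaks (x axis, bp) are plotted per library for the 10 best-ranked wide regions and the 5 with the largest difference in each direction (y axis, by chromosome and order). ΔcIDR and WT points lie close together or interleave in most of the best-ranked regions and lie apart in the others, which were picked for that.

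The median rank of the wide regions differed less between genotypes than between replicates when lists of equal length were compared. With the 3519 best-ranked peaks of each library, the median percentile of the wide regions was 71.6 and 69.7 in ΔcIDR replicates 1 and 2 and 72.0 and 70.7 in WT replicates 1 and 2, a region without a peak in the list counting as 0. The difference was −0.70 percentile points, less than the gap between the replicates of either genotype (1.93 and 1.34 points), and the exact permutation of genotypes, two-sided, gave p = 0.67 (n = 2 per genotype). Both ΔcIDR libraries ranked a region above both WT libraries in 124 of 696 wide regions (17.8%), beside 13.8% of all constant regions without P300, and both WT libraries above both ΔcIDR libraries in 150 (21.6%), beside 22.4%. In all, 528 wide regions (75.9%, 72.5 to 78.9) had a peak in each of the 4 equal lists, against 60.6% (57.6 to 63.5) of the narrow regions. All regions are in the list of WT replicate 1, the shortest, by construction.

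Regions that were long in a library tended to be long in the others, less clearly than they ranked alike. Across the 696 wide regions the Spearman correlation of bases covered was 0.37 for the ΔcIDR pair, 0.42 for the WT pair and 0.27 to 0.38 across genotypes. For the percentile of −log10 q it was 0.76, 0.70 and 0.65 to 0.70. The wide regions were chosen by merged width, which limits the range of bases covered. Over all 1716 constant regions without P300, bases covered correlated at 0.59, 0.45 and 0.43 to 0.54 in the same order. The percentile did so at 0.69, 0.63 and 0.61 to 0.66. These are correlations across regions, which are not independent replicates and share the libraries. Within a library, bases covered and percentile were correlated at 0.27 to 0.47 over the wide regions.

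Most wide regions lay many kb from the next YY1 region and from P300. Such distances depend on how many peaks the lists hold, 1286 to 2474 for P300. They were not compared with those of random positions. The nearest other YY1 region of any library lay at a median distance of 17394.5 bp (19114.5 bp for the narrow regions), and the nearest other constant region at 161363 bp (231730 bp). A YY1 region lay in 82 regions (11.8%, 9.59 to 14.4) within 1 kb (1000 bp), against 17.8% (15.6 to 20.3) of narrow regions. The nearest other wide region lay at a median of 478783 bp. The closest pairs were chr3:41510216-41511066 with chr3:41511418-41512178, 351 bp apart, and chr14:57122901-57123643 with chr14:57124358-57125111, 714 bp apart. Another pair, chr13:55358427-55359317 and chr13:55360331-55361241, was 1013 bp apart, and the next was 6407 bp apart. The nearest P300 peak of any library lay at a median of 122132 bp, against 143574 bp for the narrow regions. It lay in 5 regions within 1000 bp (0.718%, 0.307 to 1.67), against 22 narrow regions (2.16%, 1.43 to 3.24). In 33 wide regions (4.74%) it lay within 10000 bp. Absence of an overlapping P300 peak is part of the rule, and these distances describe what lay beyond the edge. The medians were thus shorter in the wide than in the narrow regions, while fewer wide regions had a neighbour within 1000 bp.

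Wide constant regions that did overlap P300 had similar median extents. The 120 regions of this kind had a median merged width of 856 bp. Their peaks covered a median of 691 and 715.5 bp in ΔcIDR and 452.5 and 545 bp in WT replicates 1 and 2. The median spread of their summits was 164.5 bp, and the median log2 difference in bases covered between genotypes was 0.48, as in the wide regions without P300, where it was also 0.48. Their median fold was 7.11 and 8.06 in ΔcIDR and 5.82 and 6.09 in WT replicates 1 and 2, below that of the wide regions without P300 in each library. The highest fold went the other way, at 20.3 to 29.3 over the libraries in the regions with P300 and 14.6 to 20.9 in those without. The highest −log10 q was 13686.1 to 19614.6 over the libraries with P300 and 58.4 to 98.4 without. The widest region with P300 was 5714 bp long, against 1961 bp without. What set these extremes was not tested. The summit lay between 33.3% and 66.7% of the length in 42.5% to 49.2% of the regions with P300, lower than in those without in each of the 4 libraries.

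The wide regions were spread over all chromosomes analysed. Chromosome 2 held 66 (9.48%, 7.52 to 11.9), chromosome 7 held 58 (8.33%, 6.50 to 10.6) and chromosome 11 held 57 (8.19%, 6.37 to 10.5), against 7.38%, 6.40% and 7.49% of all merged YY1 regions. The X chromosome held 12 (1.72%, 0.989 to 2.99), against 43 narrow regions (4.22%, 3.14 to 5.63) and 2.70% of all merged regions. Chromosome 13 held 18 (2.59%, 1.64 to 4.05), against 47 narrow regions (4.61%, 3.48 to 6.07). Among constant regions without P300, the wide ones thus made up 21.8% on the X chromosome and 27.7% on chromosome 13, against 50.4% on chromosome 2 and 40.6% in all. These chromosomes were picked as the extremes of 20 and the shares were not tested.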

How the data were processed

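YY1 and P300 were mapped by CUT&RUN in 8 libraries. The authors deposited 1 peak list per library; the build GRCm39 and the tools MACS2, BWA, fastp, Picard, SAMtools and featureCounts come from the submitters' processing notes, without roles or versions. The deposited ΔcIDR lists carry the abbreviation KI, which the labels do not explain; groups follow the labels. The sources used here do not say whether a control library entered the calls. The lists hold the authors' fold enrichment at the summit (a ratio), −log10 p and −log10 q values and a whole-number score; the deposited score and −log10 p were not used. The lowest deposited −log10 q was 1.30 to 1.31. Peaks off chromosomes 1 to 19 and X (0.683% to 10.0% of a list) were left out. Fold and −log10 q describe or rank peaks within their own list.

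Merging, overlap, bases covered, summit distances and tests were computed in Python 3.11.15 with pandas 2.3.3, numpy 2.4.6 and scipy 1.17.1, and checked on simulated peaks. The highest peak by −log10 q stands for a region. Genotypes were compared over the libraries' medians by two-sided exact permutation of 4 libraries. Intervals are Wilson 95%. The regions, the named-region rule (best rank, widest, nearest 700 bp, largest genotype difference, tightest summits) and the settings were chosen with earlier results of these data known. Shares at gene starts and with a YY1 motif, and the gene lists, needed an annotation and sequence of GRCm39 and were not computed, since the tables at hand are on GRCm38. Alternatives changed the list length, threshold, merging gap, width, P300 distance and libraries.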

Additional observations from a re-analysis of the deposited data

How the results depend on the processing

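The number of wide regions stayed within 1.5 times of 696 under 12 of 14 alternatives, and was 415 with YY1 peaks of a −log10 q of at least 5 and 174 at a width of at least 1000 bp, both of which keep fewer regions by construction. Leaving out a YY1 library gave 494 to 829, and a P300 library 706 to 732. The genotype difference in bases covered, log2 0.50, kept its direction under all 8 alternatives, at 0.33 to 0.67. Equal list length and the higher threshold remove whole peaks and leave the width of the others as deposited. They cannot show the part of list length in this difference. The difference in percentile, −0.70 points at equal list length, turned to 14.0 with whole lists, where a longer list raises the percentile of the same regions, and ran from −1.67 to 0.26 when a library was left out (0.26 without ΔcIDR replicate 2). At a −log10 q of at least 5, which leaves 418 regions called in all 4 libraries, ΔcIDR covered more bases in 210 and WT in 16, an alternative chosen after seeing the data. The share over all constant regions without P300 at that threshold was not computed. Without a single library, the WT count was 47 to 104 and the ΔcIDR count 409 to 534, since fewer libraries have to agree. The median spread of summits, 162 bp, was 114.5 to 125 bp over 3 libraries, which is smaller by construction, and 159 bp with the nearest summits. With lists of equal length, the wide regions still exceeded the narrow ones in a left-out library, by 10.0 percentage points in calls and 0.60 (log2) in bases covered. The wider window was not allowed for there either. With the replicate block the difference in bases covered was 0.50 and that in percentile −0.70, as without it, each with p = 0.5 by the exact sign-flip permutation test, the smallest 2 pairs allow. The deviations of same-numbered libraries correlated at −0.0036 over the wide regions. A correlation leaves out a shift common to all regions, so it cannot decide whether same-numbered libraries belong together. Replicate 2 had the longer list and the higher median of bases covered in each genotype. The labels' numbers were not used to pair the libraries in the main comparison. Depth limits all values, since read totals are unknown.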
